A study of Homo sapiens with 6 samples.

Results

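The ERK feedback genes are genes that ERK signalling induces and whose products turn that signalling down or carry its output. They comprised 10 genes, chosen by name from 61731 genes and loci in the deposited table. These were the phosphatases DUSP4, DUSP5 and DUSP6, the Sprouty genes SPRY1, SPRY2 and SPRY4, the Spred genes SPRED1 and SPRED2, and the transcription factors ETV4 and ETV5. Their levels were compared between 3 negative control libraries (NC) and 3 knockdown libraries (KD) of U87-MG, an established human glioblastoma cell line. The control and the knockdown cells were of the same line, and the study made its knockdown with lentivirus carrying a sequence against CHRM3, the M3 muscarinic acetylcholine receptor. The sample labels name CHRM without the subtype. Which of its knockdown sequences these libraries carried, whether the cells were a pool or a clone, and whether replicates were separate cultures, was not stated, so the p-values measure only the spread between these libraries, which may be technical. The receptor couples to Gq proteins, and the 10 genes are compared here between cells with and without this knockdown.

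In the ERK cascade, a growth factor or G protein-coupled receptor activates RAS, which activates RAF, MEK and then the ERK kinases. Active ERK enters the nucleus and raises the transcription of its own inhibitors. The DUSP phosphatases remove the activating phosphates from ERK, and the Sprouty and Spred proteins act further up, at RAS and RAF. ETV4 and ETV5 belong to the PEA3 group of ETS factors, and their transcripts are widely used as readouts of ERK activity in gliomas and other tumours.

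Levels were given as TPM, a length-corrected share of the transcripts in a library, which keeps no read depth, so the depth behind these values is unknown. Means are followed by ± SD (n = 3 libraries per group) throughout. The test took genes whose mean over all libraries reached 1 TPM, which left 13722 genes and 9 of the 10 ERK feedback genes. In each library, 13518 to 13664 genes reached 1 TPM. Of the glioma and mesenchymal markers, VIM and CD44 were abundant, NES was low, GFAP was 0.87 to 1.46 TPM, and SOX2, S100B and OLIG2 were below 1 TPM in every library. VIM was 6574 ± 77.2 TPM in NC and 7376 ± 115 TPM in KD (adjusted p = 0.000416 by limma, and 0.0615 with quantile normalization). CD44 fell from 597.3 ± 21.6 to 473.5 ± 12.6 TPM, and NES rose from 2.25 ± 0.281 to 3.58 ± 0.396 TPM (adjusted p = 0.000529 and 0.0151 by limma). The part of these marker differences in the results below was not tested. The leukocyte markers CD3E and TYROBP were listed at 0 in all 6 libraries, and PTPRC was at most 0.12 TPM. The targeted gene CHRM3 was at 0.02, 0.09 and 0.13 TPM in NC and at 0.13, 0.01 and 0.02 TPM in KD. These groups overlapped near the rounding step of 0.01 TPM (exact two-sided permutation test, p = 0.80), so the group of each library rests on its label.

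Of the 9 tested ERK feedback genes, 4 were lower and 2 were higher in KD, and 3 did not pass the test. The genes that fell were ETV4, DUSP6, ETV5 and DUSP4, and those that rose were SPRY2 and DUSP5. SPRY4, SPRED1 and SPRED2 did not pass, and SPRY1 was too low to be tested. A gene was called at an adjusted p under 0.05 (limma on log2(TPM + 1), Benjamini-Hochberg over all tested genes). Many genes passed this test, with 24.0% of all tested genes lower and 12.1% higher, 36.1% in either direction. Of these calls 66.5% were lower, against 49.2% with median-of-ratios scaling. The 4 lower and 2 higher genes correspond to 44.4% and 22.2% of the 9. With median-of-ratios scaling, which moved the median of all genes from -0.06 to 0.003 on the log2 scale, 16.3% of all tested genes were lower and 16.8% higher, and the same 4 and 2 ERK feedback genes were called. No ERK feedback gene reached a log2 fold change of 1 in the limma fit, although 6 had an unadjusted p under 0.05. Of all tested genes, 1.87% passed that stricter limit. The median log2 fold change was -0.16 over the 9 genes and -0.06 over all tested genes, and the median size of the change was 0.26 and 0.18. In a bulk library, fewer cells with a transcript and less of it per cell cannot be told apart.

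**Figure D1:**
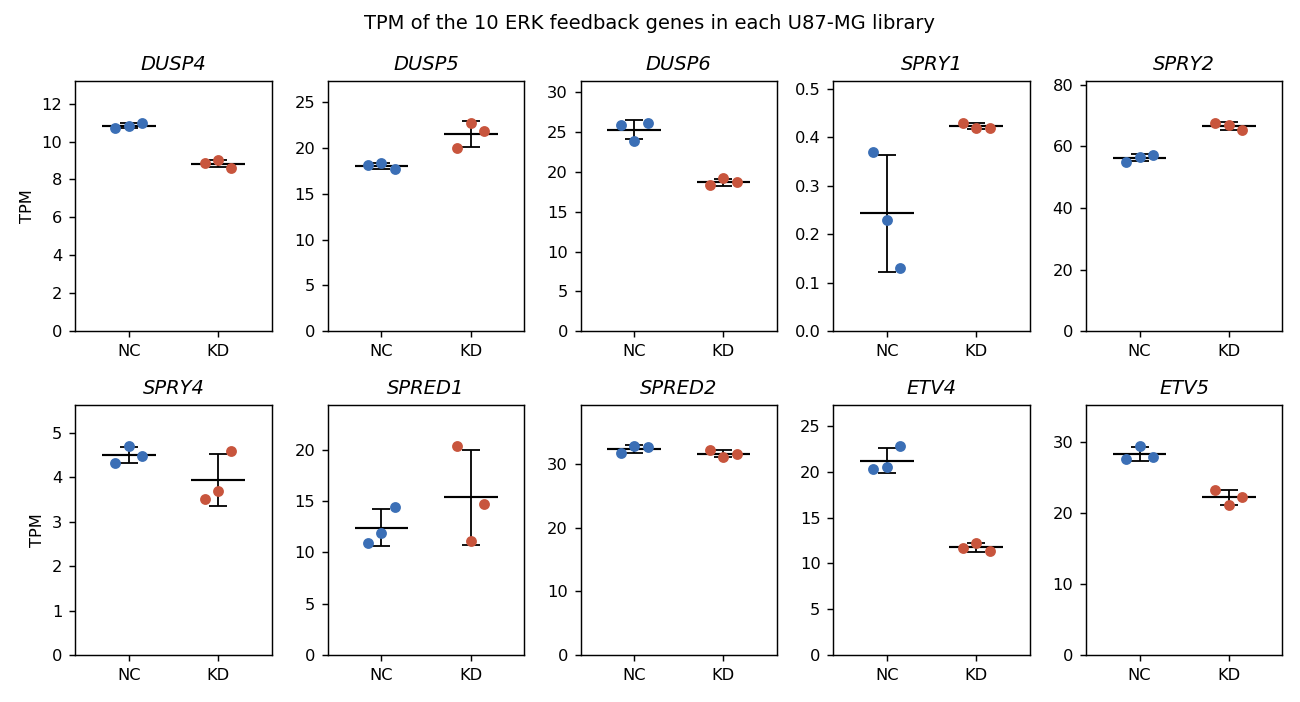
TPM of each ERK feedback gene (vertical axis, from 0) in the 3 NC and 3 KD libraries, with 1 point per library, horizontal lines for means and bars for SD. The KD points lie below all NC points for ETV4, DUSP6, ETV5 and DUSP4 and above them for SPRY2, DUSP5 and SPRY1, while SPRY4, SPRED1 and SPRED2 overlap.

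Of the tested ERK feedback genes, the transcription factor gene ETV4 changed most. ETV4 (ENSG00000175832) lies on chromosome 17, positions 43527844 to 43579620 of the minus strand (GRCh38). It measured 20.31, 20.55 and 22.77 TPM in the NC libraries and 11.71, 12.25 and 11.32 TPM in the KD libraries. Every KD library was far below the lowest NC library, and the mean fell from 21.2 ± 1.36 to 11.8 ± 0.467 TPM, or by 44.6%. This was -0.80 in log2 fold change (SE 0.0588, adjusted p = 0.000177 by limma), and 4.78% of all tested genes changed by more in either direction. ETV4 overlaps DHX8, a gene for an RNA helicase on the opposite strand, in 68 of its 3607 exonic bases. DHX8 also fell, from 23.3 ± 1.12 to 19.7 ± 0.624 TPM, or by 0.23 on the log2 scale (adjusted p = 0.0123 by limma). The strand used in counting was not given in the sources used here, and the part of shared reads in the fall of ETV4 was not tested.

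ETV5 (ENSG00000244405), the close relative of ETV4, lies on chromosome 3, positions 186046308 to 186110318 of the minus strand. Its level was 27.59, 29.39 and 27.85 TPM in NC and 23.21, 21.08 and 22.29 TPM in KD. The groups did not overlap, and the mean fell from 28.3 ± 0.973 to 22.2 ± 1.07 TPM, or by 21.5%. On the log2 scale, ETV5 differed by -0.34 between KD and NC (SE 0.0485, adjusted p = 0.00259 by limma). Of its 5802 exonic bases, 164 are shared with DGKG, a diacylglycerol kinase gene on the same strand, which fell by 0.27 on the log2 scale (limma adjusted p = 0.0197). In the NC libraries ETV5 was 1.36, 1.43 and 1.22 times as abundant as ETV4, and in the KD libraries 1.98, 1.72 and 1.97 times. These within-library ratios did not overlap between the groups, and their mean on the scale of log2(TPM + 1) was 0.40 ± 0.11 in NC and 0.86 ± 0.11 in KD. The exact two-sided permutation test gave p = 0.10, the smallest that 3 libraries against 3 allow (adjusted p = 0.16 over the 8 pairs compared).

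Of the phosphatases, DUSP4 and DUSP5 act in the nucleus and DUSP6 acts in the cytoplasm, and they did not change in the same direction. DUSP6 (ENSG00000139318) lies on chromosome 12, positions 89347232 to 89353271 of the minus strand. It measured 25.88, 23.93 and 26.2 TPM in NC and 18.32, 19.2 and 18.69 TPM in KD. No KD library reached the lowest NC library, and the mean fell from 25.3 ± 1.23 to 18.7 ± 0.442 TPM, or by 26.0%. On the log2 scale, DUSP6 differed by -0.42 between KD and NC (SE 0.0473, adjusted p = 0.000986 by limma). An annotated antisense gene, AC024909.2, shares 1875 of the 4632 exonic bases of DUSP6, but its level was only 0.38 ± 0.0964 TPM in NC and 0.247 ± 0.181 TPM in KD.

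DUSP4 (ENSG00000120875), on chromosome 8, positions 29333064 to 29350668 of the minus strand, was less abundant. Its level was 10.71, 10.82 and 10.99 TPM in NC and 8.86, 9.02 and 8.62 TPM in KD. The KD libraries were all lower, and the mean fell from 10.8 ± 0.141 to 8.83 ± 0.201 TPM, or by 18.5%. On the log2 scale, DUSP4 differed by -0.27 between KD and NC (SE 0.0465, adjusted p = 0.00551 by limma).

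DUSP5 (ENSG00000138166), on chromosome 10, positions 110497838 to 110511544 of the plus strand, moved the other way. It measured 18.16, 18.34 and 17.7 TPM in NC and 19.98, 22.76 and 21.85 TPM in KD. All KD libraries exceeded all NC libraries, and the mean rose from 18.1 ± 0.33 to 21.5 ± 1.42 TPM, or by 19.2%. On the log2 scale, DUSP5 differed by 0.24 between KD and NC (SE 0.0548, adjusted p = 0.0163 by limma). This was the 1 call of the 6 that was lost without a library. Its adjusted p was 0.0509 without NC replicate 1, 0.0583 without NC replicate 3 and 0.0562 without KD replicate 3 (limma). The pseudogenes DUSP5P1 and DUSP5P2 were near 0 TPM in both groups.

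The order of DUSP6 and DUSP5 differed between the groups. In NC, DUSP6 was 1.43, 1.30 and 1.48 times as abundant as DUSP5, and in KD 0.917, 0.844 and 0.855 times. DUSP6 was thus the higher phosphatase in every NC library and DUSP5 in every KD library. The ratio of DUSP5 to DUSP4 was 1.67 ± 0.0489 in NC and 2.44 ± 0.158 in KD. The ratio of DUSP6 to DUSP4 was 2.34 ± 0.11 in NC and 2.12 ± 0.0506 in KD. None of these ratios overlapped between the groups (exact two-sided permutation test, p = 0.10 for each, adjusted p = 0.16 over the 8 pairs). Of the 8 pairs compared over all families, 3 did overlap. They were SPRY2 to SPRY1, SPRY4 to SPRY1 and SPRED2 to SPRED1 (exact two-sided permutation test, p = 0.80, 0.20 and 0.30).

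**Figure D2:**
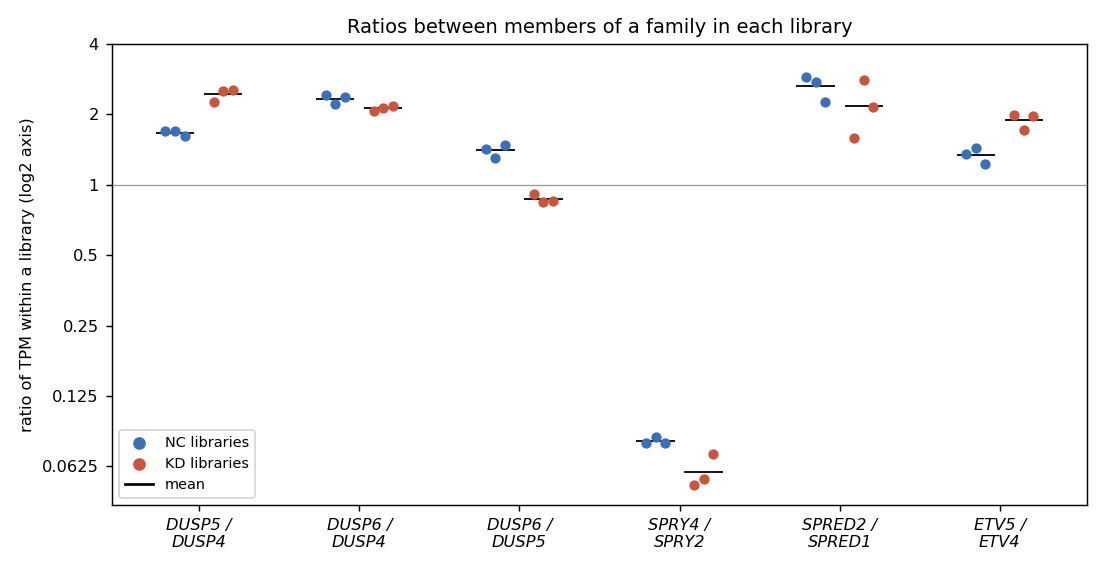
Ratio of the TPM of 2 related genes within each library (vertical log2 axis), with 1 point per library, NC in blue and KD in red, and black lines for means. The pairs with SPRY1 are not drawn. DUSP6 to DUSP5 crosses 1, from above in every NC library to below in every KD library, and ETV5 to ETV4 is higher in every KD library.

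Among the Sprouty genes, which encode inhibitors of receptor tyrosine kinase signalling, SPRY2 was the most abundant of all 10 genes. SPRY2 (ENSG00000136158) lies on chromosome 13, positions 80335976 to 80340951 of the minus strand. It measured 55.03, 56.53 and 57.23 TPM in NC and 67.68, 66.85 and 65.23 TPM in KD. The groups were well apart, and the mean rose from 56.3 ± 1.12 to 66.6 ± 1.25 TPM, or by 18.3%. On the log2 scale, SPRY2 differed by 0.24 between KD and NC (SE 0.0293, adjusted p = 0.00132 by limma).

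SPRY4 (ENSG00000187678), on chromosome 5, positions 142310427 to 142326455 of the minus strand, was far less abundant. Its level was 4.33, 4.7 and 4.48 TPM in NC and 3.52, 3.7 and 4.6 TPM in KD. Replicates 1 and 2 of KD were below all controls, but KD replicate 3 lay among them. The means were 4.50 ± 0.186 and 3.94 ± 0.579 TPM, a difference of -0.16 on the log2 scale (95% interval -0.41 to 0.08, limma adjusted p = 0.264). The annotated antisense gene SPRY4-AS1 shares no exonic base with SPRY4 and was 2.04 ± 0.13 TPM in NC and 2.8 ± 0.491 TPM in KD. The ratio of SPRY4 to SPRY2 was 0.08 ± 0.0027 in NC and 0.0593 ± 0.00987 in KD, with no overlap between the groups (exact two-sided permutation test, p = 0.10, adjusted p = 0.16 over the 8 pairs).

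SPRY1 (ENSG00000164056), on chromosome 4, positions 123396795 to 123403760 of the plus strand, was close to undetected. It measured 0.37, 0.23 and 0.13 TPM in NC and 0.43, 0.42 and 0.42 TPM in KD. The KD libraries were all above the NC libraries, but at this level the values are coarse. In a limma fit with no limit on low values, its log2 fold change was 0.20 (standard error 0.0825, adjusted p = 0.22).

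The Spred proteins hold RAS and RAF in check by bringing neurofibromin, the RAS-inactivating product of NF1, to the membrane. SPRED2 (ENSG00000198369), on chromosome 2, positions 65310851 to 65432637 of the minus strand, was the second most abundant of the 10 genes. It measured 31.69, 32.78 and 32.69 TPM in NC and 32.21, 31.17 and 31.54 TPM in KD. The groups overlapped, with means of 32.4 ± 0.605 and 31.6 ± 0.527 TPM. Its log2 fold change was -0.03 (95% interval -0.11 to 0.05, limma adjusted p = 0.481), and it became 0.036 with median-of-ratios scaling and 0.042 with quantile normalization.

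SPRED1 (ENSG00000166068), on chromosome 15, positions 38252326 to 38357249 of the plus strand, had the widest spread of the 9 tested genes. It measured 10.92, 11.89 and 14.46 TPM in NC and 20.33, 11.12 and 14.71 TPM in KD. The highest value of all 6 was in KD replicate 1, whereas KD replicate 2 lay among the controls. The coefficient of variation was 14.7% in NC and 30.2% in KD. The log2 fold change of 0.26 had a 95% interval from -0.25 to 0.76 (limma adjusted p = 0.381), and it was 0.048 without KD replicate 1. A change of SPRED1 was therefore not detectable against this spread, and these libraries allow changes in either direction within that interval. NF1 itself was 6.54 ± 0.597 TPM in NC and 6.05 ± 0.332 TPM in KD (limma adjusted p = 0.391).

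**Figure D3:**
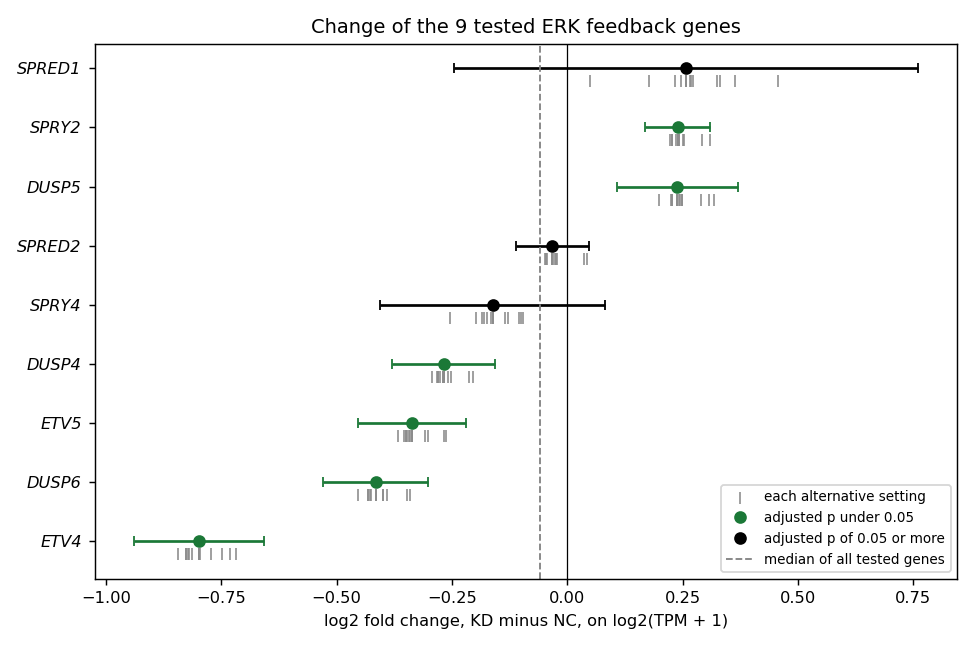
Log2 fold change (KD minus NC, horizontal axis) of the 9 tested ERK feedback genes, with 95% intervals from limma; green marks an adjusted p under 0.05, grey ticks the value under each alternative setting and the dashed line the median of all tested genes. ETV4 lies furthest from 0 at -0.80, and the interval of SPRED1 is the widest.

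Promoter windows from 250 bases before to 50 bases after an annotated start were taken from RefSeq (GRCh38.p14) for 6 of the 10 genes. These were DUSP6, SPRY1, SPRY2, SPRY4, SPRED1 and SPRED2, with 10 windows in all. No window of the remaining genes was among these, which does not show that RefSeq gives none for them. Each was searched on both strands for the ETS site CCGGAAG, the AP-1 site TGANTCA, the cyclic AMP response element TGACGTCA, and TGAATGAA and TGAATGGA, the octamers bound by Capicua, a repressor of ETV and DUSP genes that ERK inactivates. AP-1 and the cyclic AMP response element are palindromes, so a match on either strand is the same match. Of the 10 windows, 8 held no match, which says only that these letters are absent there. The 34943 windows of all genes were searched in the same way with no chromosome left out. Of these, 10.2% held the ETS site, 7.72% the AP-1 site, 1.84% the cyclic AMP response element, and 1.65% and 1.02% the respective Capicua octamers. The sequences below are the only window of DUSP6, which fell, the most upstream window of SPRY2, which rose, and the 2 windows that held a match. They are read 5′ to 3′ on the strand of the gene, in lower case with matches in capitals.
DUSP6, minus strand, chr12:89352452-89352751, 58.3% G and C, no match: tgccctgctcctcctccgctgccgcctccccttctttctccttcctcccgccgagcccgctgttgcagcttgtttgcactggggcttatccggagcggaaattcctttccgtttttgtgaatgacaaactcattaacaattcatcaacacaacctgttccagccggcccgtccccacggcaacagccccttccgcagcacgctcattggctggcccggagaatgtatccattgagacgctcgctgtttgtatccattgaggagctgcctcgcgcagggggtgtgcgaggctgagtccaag
SPRY2, minus strand, chr13:80341077-80341376, 71.0% G and C, no match: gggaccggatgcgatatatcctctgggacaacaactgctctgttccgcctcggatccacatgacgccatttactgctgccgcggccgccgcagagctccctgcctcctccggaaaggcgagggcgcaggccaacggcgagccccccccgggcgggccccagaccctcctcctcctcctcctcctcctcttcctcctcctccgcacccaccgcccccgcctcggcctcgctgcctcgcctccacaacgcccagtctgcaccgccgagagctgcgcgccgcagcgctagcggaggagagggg
SPRED2, minus strand, chr2:65366729-65367028, 39.3% G and C, AP-1: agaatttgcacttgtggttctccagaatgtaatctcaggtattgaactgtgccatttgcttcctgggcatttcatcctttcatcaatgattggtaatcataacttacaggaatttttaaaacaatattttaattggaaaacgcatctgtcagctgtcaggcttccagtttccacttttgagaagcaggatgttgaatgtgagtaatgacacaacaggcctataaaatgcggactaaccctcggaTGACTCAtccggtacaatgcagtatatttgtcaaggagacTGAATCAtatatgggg
SPRY1, plus strand, chr4:123398136-123398435, 69.3% G and C, ETS: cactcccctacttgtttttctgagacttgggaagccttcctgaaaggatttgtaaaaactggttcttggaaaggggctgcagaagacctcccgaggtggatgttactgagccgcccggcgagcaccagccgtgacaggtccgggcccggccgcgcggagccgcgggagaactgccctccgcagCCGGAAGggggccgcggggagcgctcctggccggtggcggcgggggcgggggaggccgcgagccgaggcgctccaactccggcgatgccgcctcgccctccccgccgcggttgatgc
SPRED2 did not pass the test and SPRY1 was not tested. In the SPRED2 window, which belongs to the downstream of its 2 starts, TGACTCA begins at position 245 and TGAATCA at position 285, counted from 1 at the 5′ end. In the SPRY1 window, CCGGAAG begins at position 184. The DUSP6 and SPRY2 windows held 19 and 30 CpG dinucleotides.

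The order of the 10 genes by level differed between the groups. In NC it ran SPRY2, SPRED2, ETV5, DUSP6, ETV4, DUSP5, SPRED1, DUSP4, SPRY4 and SPRY1. Of the neighbours in this order, SPRED1 and DUSP4 overlapped in their range over the 3 libraries, and the others did not. In KD it ran SPRY2, SPRED2, ETV5, DUSP5, DUSP6, SPRED1, ETV4, DUSP4, SPRY4 and SPRY1. There, ETV5 overlapped DUSP5, DUSP6 overlapped SPRED1, and SPRED1 overlapped ETV4. ETV4 moved from rank 5 to rank 7, with 21.2 TPM in NC and 11.8 TPM in KD. The levels of all 10 genes summed to 209.6 ± 4.77 TPM in NC and 201.0 ± 4.60 TPM in KD. Over the 6 libraries, the tested genes whose log2(TPM + 1) followed SPRY2 most closely were CZIB, COL5A2 and ROS1, with Pearson's r of 0.9996, 0.9989 and 0.9982. The 6 points are 2 groups that differ in level, and 687 tested genes had an r of at least 0.95 with SPRY2.

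The nearest relatives of these genes were compared next. Of 10 other phosphatase, Sprouty, Spred and PEA3 genes, 7 were tested, of which 1 rose, none fell and 6 did not pass (limma, with none lower and 2 higher at an unadjusted p under 0.05). The 1 rise was 14.3% of the 7, while 12.1% of all tested genes were higher and 24.0% lower. The exception was DUSP1, a nuclear phosphatase of p38, JNK and ERK that stress and growth signals induce. Its level was 131.89, 127.99 and 130.93 TPM in NC and 236.42, 238.08 and 241.74 TPM in KD. The groups were far apart, and the mean rose from 130.3 ± 2.03 to 238.7 ± 2.72 TPM, or by 0.87 on the log2 scale (SE 0.0215, adjusted p = 2.79e-06 by limma). This exceeded the change of every ERK feedback gene in size, and DUSP1 was also the most abundant of the phosphatases measured here.
ETV1, the remaining PEA3 gene, was 29.4 ± 1.44 TPM in NC and 34.0 ± 2.60 TPM in KD. Its KD libraries were all above its NC libraries, opposite to the falls of ETV4 and ETV5, with a log2 fold change of 0.20 and an adjusted p just above the threshold (limma adjusted p = 0.0531). With median-of-ratios scaling the adjusted p of ETV1 was 0.0211. DUSP7, the cytoplasmic relative of DUSP6, was 23.9 ± 0.508 TPM in NC and 23.4 ± 0.655 TPM in KD, a difference of -0.03 on the log2 scale (95% interval -0.12 to 0.06). The phosphatases DUSP10, DUSP16 and DUSP8 and the Spred gene SPRED3 had log2 fold changes of -0.15, -0.19, 0.10 and -0.15, respectively, none with an adjusted p under 0.05. DUSP2 was listed at 0 in all 6 libraries, and DUSP9 and SPRY3 were below 1 TPM in each.

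Of the cascade that activates ERK, 27 genes were listed and 26 tested, of which 6 fell, 5 rose and 15 did not pass. The 6 and 5 were 23.1% and 19.2% of the 26, against 24.0% lower and 12.1% higher among all tested genes. With median-of-ratios scaling 4 of the 26 were lower and 7 higher. The median log2 fold change was -0.07, against -0.06 for all tested genes. ARAF, a RAF kinase, fell from 52.1 ± 1.36 to 42.2 ± 1.65 TPM. MAP2K1, which encodes MEK1, rose from 71.2 ± 0.717 to 83.7 ± 2.58 TPM. The adaptor SHC1, which links receptors to RAS, fell from 151.2 ± 3.56 to 124.5 ± 3.68 TPM.
ELK1, an ETS factor that ERK phosphorylates, fell from 39.8 ± 0.849 to 31.1 ± 0.635 TPM, while its partner SRF rose from 21.3 ± 0.465 to 25.4 ± 0.241 TPM. RASA1, a GTPase-activating protein that switches RAS off, rose from 18.2 ± 0.91 to 25.4 ± 0.33 TPM, and NRAS rose from 46.3 ± 1.73 to 55.0 ± 0.648 TPM. The log2 fold changes of these genes that fell were -0.30 for ARAF, -0.28 for SHC1 and -0.34 for ELK1. Those of the 4 that rose were 0.23 for MAP2K1, 0.24 for SRF, 0.46 for RASA1 and 0.25 for NRAS, all with a limma adjusted p of 0.0026 or less. The most abundant genes of the list were PEBP1, an inhibitor of RAF, at 384.6 ± 1.91 TPM in NC and 394.5 ± 5.32 TPM in KD, and MAP2K2, which encodes MEK2, at 214.7 ± 3.42 and 205.0 ± 6.11 TPM. Neither had an adjusted p under 0.05.

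Of 22 other genes that ERK signalling is known to induce, 21 were tested, of which 7 fell, 7 rose and 7 did not pass. Those that fell and those that rose were each 33.3% of the 21, against 24.0% and 12.1% of all tested genes. With median-of-ratios scaling 6 of the 21 were lower and 8 higher. The median log2 fold change of the 21 was 0.03. The largest fall was that of LIF, a cytokine of the interleukin-6 family, from 37.8 ± 1.34 to 9.02 ± 0.928 TPM, or by 1.96 on the log2 scale (adjusted p = 1.37e-05 by limma). CCND1, which encodes the G1 cyclin D1, fell from 311.0 ± 1.26 to 214.7 ± 2.57 TPM. PLAUR, the receptor of urokinase, fell from 336.7 ± 2.19 to 265.9 ± 5.18 TPM.
Of the genes that rose, ERRFI1, FOS and EPHA2 had the smallest adjusted p, followed by FOSL1 and HBEGF, which were tied. FOS, an immediate early gene, rose from 49.2 ± 1.16 to 65.7 ± 3.60 TPM and FOSL1, its relative with slower kinetics, rose from 495.4 ± 2.79 to 563.5 ± 30.8 TPM. The receptor tyrosine kinase gene EPHA2 rose from 6.60 ± 0.231 to 8.79 ± 0.568 TPM. ERRFI1, an inhibitor of the EGF receptor that ERK also induces, rose from 67.2 ± 0.416 to 82.3 ± 1.49 TPM. The log2 fold changes of FOS, FOSL1, EPHA2 and ERRFI1 were 0.41, 0.18, 0.36 and 0.29, with limma adjusted p of 0.000857, 0.0111, 0.00625 and 0.000354. HBEGF, a ligand of the EGF receptor, rose from 7.93 ± 0.384 to 11.4 ± 1.47 TPM, or by 0.46 on the log2 scale (SE 0.096, adjusted p = 0.0111 by limma), the largest rise of the list.

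**Figure D4:**
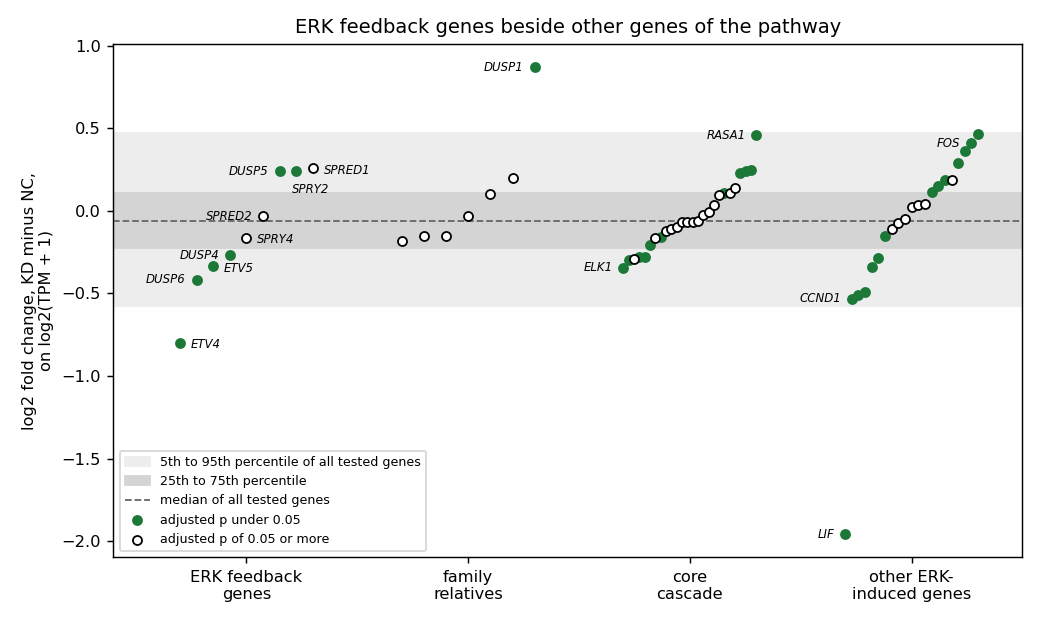
Log2 fold change (KD minus NC, vertical axis) of the tested genes of 4 lists, with 1 point per gene in rising order, filled green at an adjusted p under 0.05; grey bands hold the 5th to 95th and 25th to 75th percentiles of all tested genes. ETV4 lies below the wider band, DUSP1 above it and LIF furthest below at -1.96, and each list but the relatives holds genes called in both directions.

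The groups did not overlap for 6 of the 9 tested ERK feedback genes, with 4 whose KD libraries lay all below and 2 whose KD libraries lay all above. Of all tested genes, 32.8% had KD libraries all below and 17.4% all above. For the 4 genes that fell, the adjusted p stayed under 0.05 in each of 16 alternative fits, and the log2 fold changes ranged from -0.84 to -0.72 for ETV4, from -0.45 to -0.34 for DUSP6, from -0.37 to -0.26 for ETV5 and from -0.29 to -0.20 for DUSP4. SPRY2 also passed in all 16, with log2 fold changes from 0.22 to 0.31.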

How the data were processed

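Total RNA of 6 U87-MG libraries, 3 per group, was sequenced with paired ends. As deposited, the values are TPM per gene and library in 1 table made by the authors, rounded to 2 decimals. The submitters' processing notes name fastp, RSEM and the build GRCh38.p13, and the aligner, annotation release and strand setting are not given in the sources used here. Because TPM values are shares, abundant genes that differ shift all others. Columns were matched to samples by name, and 0 were left over. Symbols came from the table of gene names (61369 identifiers matched) and coordinates from GENCODE 29 (GRCh38). limma 3.58.1 (R 4.3.3) was fitted to log2(TPM + 1) (lmFit, eBayes with a mean-variance trend, group as the only term) over all 13722 genes whose mean reached 1 TPM. Fold changes on this scale understate those of low genes. The procedure was tested on simulated data. Ratios and CHRM3 were tested by exact permutation over libraries.

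The 10 genes and the further lists were chosen with earlier results of these data known. The genes named were all 10, their tested relatives, and in each pathway list the 4 lower and 4 higher genes with the smallest adjusted p (and HBEGF, tied with FOSL1) and the 2 most abundant, as well as the 3 genes most correlated with the most abundant of the 10. Alternatives varied the pseudocount, the limit on low values, the scaling, the eBayes trend, a replicate block and the libraries used. Some genes that this rule or a marker list names are not reported here. No count test was used, and protein sequences were not analysed here.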

Additional observations from a re-analysis of the deposited data

How the results depend on the processing

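Of the ERK feedback genes, the same 4 were lower in all 16 alternative fits, and 2 were higher in each fit on all 6 libraries. Across the fits that each left out a library, 1 to 2 were higher, since DUSP5 was lost without NC replicate 1, NC replicate 3 or KD replicate 3. With a required absolute log2 fold change of 1, 0 were lower and 0 higher, and 256 of all tested genes were called in place of 4955. Of the relatives, 2 were called (DUSP1 and ETV1) with a limit of 5 TPM, median-of-ratios scaling, quantile normalization and the replicate block, and 1 to 2 across the fits without a library. The log2 fold change of SPRED2 turned to 0.036 with median-of-ratios scaling and 0.042 with quantile normalization. The difference in the log2 ratio of SPRY2 to SPRY1 turned from 0.04 to -0.43 with a pseudocount of 0.1, and it was -0.048 to 0.12 without a library; SPRY1 lies below 1 TPM. The cause of these was not tested.

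Of all calls, 66.5% were lower, against 49.2% with median-of-ratios scaling and 49.96% with quantile normalization. Deviations from the group mean correlated at -0.02, 0.03 and 0.03 between same-numbered libraries of NC and KD. Between differently numbered libraries the values ran from -0.07 to 0.03. Same-numbered libraries thus showed no visible shared deviation, but these values cannot show whether libraries were prepared in pairs. The replicate block gave 4007 calls and changed no call of an ERK feedback gene. TPM keeps no depth, so counting error is unknown, and 3 libraries per group limit what small changes could be seen.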
